A study of Mus musculus with 9 samples.

Results

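Described here are 36 genes that code for the protein folding machinery of the endoplasmic reticulum (ER) and for the unfolded protein response that adjusts it. They were taken as a named list and read in single thyroid cells of mice in which Notch signalling was blocked with antibodies. All 36 symbols were found among the 52636 gene rows of the deposited count table. The list holds 3 stress sensors (Ern1, Atf6, Eif2ak3), 3 transcription factors (Xbp1, Atf4, Ddit3), 3 Hsp70 or Hsp90 class chaperones, 6 J-domain proteins and other chaperone partners, 2 lectin chaperones, 10 members of the disulfide isomerase family and 9 genes of ER-associated degradation. By textbook assignment, with 1 arm per gene, 12 were read as the ATF6 arm, 11 as the XBP1 arm, 3 as the PERK arm and 10 as belonging to no arm.

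Male C57BL/6 mice received 1 intraperitoneal antibody dose and thyroids were taken after 7 days. The control group (RW) received 40 mg/kg of an antibody to ragweed. The ligand group (aJ1aJ2) received antibodies to Jag1 and Jag2 at 20 mg/kg each, and the receptor group (aN1aN2) received anti-Notch1 at 5 mg/kg with anti-Notch2 at 10 mg/kg. Each group holds 3 samples, and each sample is a pool of 6 mice aged 10 to 12 weeks in the design text and 10 to 14 weeks in the protocol. The antibodies act in the whole animal, so a change in thyroid cells need not start in those cells. The 3 aN1aN2 samples form a numbered series of their own, so receptor blockade and that series cannot be told apart in any value below.

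In the ER, new secretory proteins are folded by Hsp70 and Hsp90 class chaperones, by lectin chaperones that bind sugar chains and by disulfide isomerases, and proteins that fail to fold are returned to the cytosol for degradation. When unfolded protein builds up, IRE1 (Ern1) splices the mRNA of Xbp1, ATF6 is cut to release a transcription factor, and PERK (Eif2ak3) slows translation while favouring ATF4, which raises Ddit3 (CHOP). Thyrocytes secrete thyroglobulin (Tg), a very large glycoprotein with many disulfide bonds, and carry a large share of this machinery. The reads used here come from transcript 3′ ends and do not separate spliced from unspliced Xbp1.

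The authors divided 10186 cells into 16 labels, and counts were summed per sample and label. The thyrocyte label Th1 held 1169 cells, 62 to 193 per sample, with 872716 to 5233988 UMIs (unique transcript tags) per sample. All 9 thyrocyte markers were detected in it, at a summed 91260 to 98406 counts per 1000000 UMIs of the scaled total (CPM) in RW, 86364 to 116974 in aJ1aJ2 and 98511 to 114105 in aN1aN2. The median Th1 cell held 12535 to 22558 UMIs in RW samples, 9968 to 15314 in aJ1aJ2 and 5737 to 7558 in aN1aN2. Ribosomal protein genes took 10.6% to 11.8% of Th1 UMIs in RW and 16.1% to 16.7% in aN1aN2. Mitochondrial genes took 8.07% to 8.83% and 6.60% to 6.99%. In aJ1aJ2 these shares were 11% to 13.1% and 7.87% to 10.1%. Of the marker lists of other cells, Schwann genes summed to 225 to 248 CPM in Th1 of RW and 87.1 to 99.1 in aN1aN2 (Sox10 at 0), endothelial genes to 415 to 576 and 99.7 to 443, and parathyroid genes to 10.0 to 48.5 and 125 to 294. C cell and erythroid genes had the highest sums over all Th1 cells, with 415 to 1089 CPM and 95.7 to 1639 over RW samples, and 1001 to 1887 and 659 to 1266 over aN1aN2 samples. In aJ1aJ2 the Schwann sum was 163 to 198 CPM, below all RW samples, and the C cell, erythroid, endothelial and parathyroid sums were 26.1 to 2617, 132 to 1094, 206 to 522 and 19.7 to 69.1. B or plasma cell genes summed to 24.0 to 28.0 CPM in RW, 28.2 to 32.4 in aJ1aJ2 and 50.5 to 63.0 in aN1aN2 (Cd79a and Ms4a1 at 0), with no overlap between groups. The endothelial, fibroblast, macrophage and Schwann markers each summed highest in the labels EC1 to EC4, F, M and S, and Th3 held thyrocyte, C cell and skeletal muscle markers together. Over all samples pooled, lymphatic markers were close behind endothelial ones in EC3. By sample they summed there to 2006 to 3971 CPM in RW, 3845 to 17986 in aJ1aJ2 and 1097 to 2453 in aN1aN2. The part of depth, RNA makeup and other cells' markers in the changes below was not tested. Of the 10186 cells, 30 carried a barcode that occurred in more than 1 library.

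The sequences through which ATF6 and XBP1 act are known, and their matches are shown here as description. The arms were set by textbook assignment, and genes and arms were chosen with earlier results of these data known. The share of elements is therefore no independent evidence on the genes, the arms or their changes. Of the 36 genes, 31 matched an entry of RefSeq start sites (build GRCm38.p6). These starts can differ from the GENCODE gene spans, which are the spans printed for single genes below. The matches in Hspa5, Txndc5 and Txndc11 lie upstream of the RefSeq start but inside the GENCODE span. Overlap with exons is given only for Derl3. The ER stress response element ERSE (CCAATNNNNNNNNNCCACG, read on both strands, as were the other motifs) was present within 250 bases upstream of the start in 9 of these 31 genes, or 29.0%, against 35 of 27025 genes, or 0.13%. The related ERSE-II (ATTGG and CCACG with 1 base of any kind between them) was present in Herpud1 alone of the 31, and in 10 of all genes (0.037%). Each match is printed below 5′ to 3′ along the gene, with the element in capitals and up to 5 bases on either side. Elements that read CGTGG first lie in reverse orientation.
Hspa5 (chr2:34772020-34772048, + strand): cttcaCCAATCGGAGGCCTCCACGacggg
Hsp90b1, distal (chr10:86705633-86705661, - strand): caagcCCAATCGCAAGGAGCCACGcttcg
Hsp90b1, proximal (chr10:86705528-86705556, - strand): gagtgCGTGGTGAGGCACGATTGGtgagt
Calr (chr8:84847070-84847098, - strand): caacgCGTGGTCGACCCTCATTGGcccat
Creld2 (chr15:88819515-88819543, + strand): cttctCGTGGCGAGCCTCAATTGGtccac
Derl3 (chr10:75893237-75893265, + strand): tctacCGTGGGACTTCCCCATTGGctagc
Pdia6 (chr12:17266486-17266514, + strand): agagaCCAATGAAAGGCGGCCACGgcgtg
Dnajc3 (chr14:118937822-118937850, + strand): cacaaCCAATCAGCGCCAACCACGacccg
Syvn1 (chr19:6046527-6046555, + strand): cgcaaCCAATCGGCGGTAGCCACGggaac
Canx (chr11:50325795-50325823, - strand): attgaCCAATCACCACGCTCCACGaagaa
Herpud1, ERSE-II (chr8:94386372-94386392, + strand): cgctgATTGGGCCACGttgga

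By arm, an ERSE or ERSE-II was found in 6 of 9 ATF6 genes with an entry, 3 of 10 XBP1 genes, 0 of 3 PERK genes and 1 of 9 genes of no arm. The UPRE core (TGACGTGG) was found in Txndc5 and Txndc11 and in 0.603% of all genes, and the C/EBP-ATF element (TTGCATCA) in Herpud1 and in 0.918%. As context for the match in Derl3, which had the largest fall in Th1 among the genes with an ERSE, its 250 upstream bases are given whole, again with the element in capitals. The window (chr10:75893148-75893397, + strand, GRCm38.p6) overlaps no annotated exon.
Derl3: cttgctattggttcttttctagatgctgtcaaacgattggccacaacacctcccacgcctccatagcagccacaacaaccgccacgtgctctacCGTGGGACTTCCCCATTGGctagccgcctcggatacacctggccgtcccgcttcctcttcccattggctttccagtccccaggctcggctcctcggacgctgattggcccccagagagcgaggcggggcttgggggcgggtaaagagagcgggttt

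In RW the 36 genes took the largest share of UMIs in Th1. Their UMIs made up 1.65%, 1.99% and 1.91% of all UMIs in Th1 of the 3 RW samples, 1.29% to 1.47% in Th3, 0.652% to 0.886% in the fibroblast label F and 0.453% to 0.497% in the endothelial label EC1. Among the 12 labels with at least 2 RW samples of 20 cells or more, Th1 had the highest mean level of 19 genes, Th3 of 6, EC4 of 4, F and the macrophage label M of 3 each, and the Schwann label S of 1. Of these first places only 7 were clear of the next label in every sample, namely Hsp90b1, Dnajc3 and P4hb in Th1, Os9 in Th3, Dnajc10 and Txndc5 in F, and Erp29 in M.

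Hspa5 (BiP, the ER Hsp70) averaged 2621 ± 469 CPM (SD, n = 3) in RW Th1 and 2003 ± 462 in Th3. It averaged 976 ± 345 CPM in F and between 306 and 597 in EC1 to EC4, S, T1 and M. The ranges of Th1 and Th3 overlapped, while F stayed below both. Derl3, a derlin of secretory cells, was at 206 ± 44.0 CPM in Th1 and 190 ± 86.2 in Th3, and at a mean of 8.08 CPM or less in the other 10 labels. Erp29, an escort of secretory proteins, was highest in macrophages, at 385 to 508 CPM in M against 166 to 211 in Th1. Txndc5, a disulfide isomerase family member, reached 204 to 290 CPM in F against 161 to 180 in Th1, and Dnajc10, which reduces disulfides, 128 to 177 against 62.1 to 69.0.

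Transcripts of Tg were counted in every label, so the level that they would bring along at the gene ratios of Th1 was set beside the measured one. For Hspa5 in RW this was 135% of the level in Th3, 6.04% in EC1, 18.8% in EC4 and 1.31% in F. The cells of Th3 held a median of 987 UMIs, and this estimate for Th3 was no lower than the measured level of Hspa5 or Derl3 (114%). For Derl3 it was 58.9% of the level in EC1 and 79.9% in EC4.

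**Figure D1:**
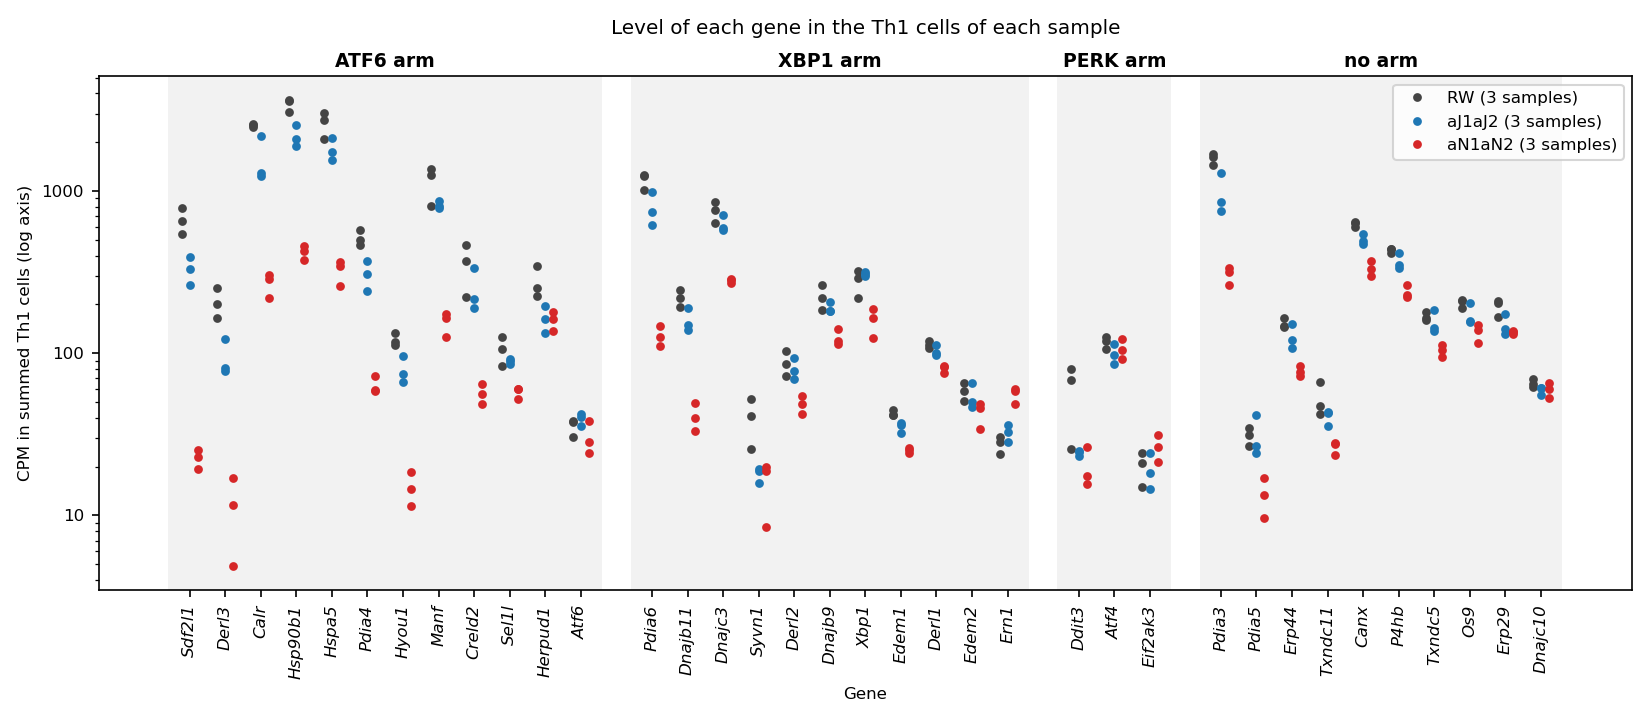
CPM on a log axis (vertical) of each of the 36 genes (horizontal, grouped by arm and ordered by change) in the summed Th1 cells, with 1 point per sample and 3 samples per group. The aN1aN2 points of Sdf2l1 lie at 19.4 to 25.2 CPM, below all RW points at 540 to 780, while those of Atf6, Atf4 and Dnajc10 overlap the RW points.

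Under receptor blockade, nearly the whole folding apparatus of Th1 was lower. Against RW, 31 of the 36 genes passed the test (edgeR's quasi-likelihood test, Benjamini-Hochberg adjusted p under 0.05 over 10627 genes), 30 of them lower and 1, Ern1, higher. Over all genes tested 34.6% were called, 17.3% lower and 17.3% higher. The median log2 change was -0.92 over the 36 genes and 0.02 over all genes. In 30 of the 36 every aN1aN2 sample lay below every RW sample, which held for 23.7% of all genes. The summed share of UMIs was 0.437%, 0.382% and 0.413% in the 3 aN1aN2 samples. These values lie within or near the 0.331% to 0.570% that EC1 to EC4 held in RW.

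The 3 Hsp70 and Hsp90 class chaperones fell by almost the same factor. Hspa5 (ENSMUSG00000026864, chromosome 2, 34771970 to 34777547) was at 2103, 3016 and 2745 CPM in RW, 2120, 1561 and 1745 in aJ1aJ2, and 363, 261 and 347 in aN1aN2. The aN1aN2 samples lay far below all others, and 1 aJ1aJ2 sample lay within the RW range. The fall to aN1aN2 was 8.11-fold (log2 change -3.02, SE 0.17, adjusted p 2.8e-08). Hsp90b1 (ENSMUSG00000020048, chromosome 10, 86690209 to 86705509), the ER Hsp90, stood at 3049, 3662 and 3562 CPM in RW, at 2559, 1890 and 2077 in aJ1aJ2 and at 458, 377 and 424 in aN1aN2. Its groups did not overlap, and the fall from RW to aN1aN2 was 8.15-fold (log2 change -3.03, SE 0.12, adjusted p 3.8e-13). Hyou1, a large Hsp70 relative that acts on BiP, was at 113, 132 and 117 CPM in RW, 95.7, 66.8 and 74.7 in aJ1aJ2, and 18.7, 11.5 and 14.5 in aN1aN2, again in 3 separate ranges (log2 change to aN1aN2 -2.99, SE 0.19, adjusted p 7.6e-11).

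Partners of these chaperones held the largest change of the list. Sdf2l1 (ENSMUSG00000022769, chromosome 16, 17130138 to 17132383), which keeps BiP substrates soluble together with Dnajb11, was at 540, 780 and 652 CPM in RW. It was at 391, 264 and 333 CPM in aJ1aJ2 and at 25.2, 19.4 and 23.0 in aN1aN2. The 3 groups were separate, and the fall to aN1aN2 was 29.0-fold (log2 change -4.86, SE 0.20, adjusted p 4.7e-11). Dnajb11, the J-domain partner of BiP, was at 194, 220 and 246 CPM in RW and 49.4, 33.3 and 39.9 in aN1aN2 (log2 change -2.42, SE 0.16, adjusted p 4.6e-10). Manf, a secreted factor that binds BiP, went from 811, 1260 and 1366 CPM to 166, 125 and 175 (log2 change -2.89, SE 0.20, adjusted p 7.9e-07). In both genes every aN1aN2 sample was below every other sample. Dnajc3, an inhibitor of eIF2α kinases that also works as a BiP partner, changed by -1.43 and Dnajb9, which restrains IRE1, by -0.82. Dnajc10 did not pass (log2 change -0.16, adjusted p 0.37), with 52.7 to 65.3 CPM in aN1aN2 and 62.1 to 69.0 in RW.

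Of the lectin chaperones, the soluble Calr changed far more than its membrane relative Canx. Calr (calreticulin) was at 2495, 2553 and 2582 CPM in RW, 2174, 1229 and 1286 in aJ1aJ2 and 285, 220 and 305 in aN1aN2. No group overlapped another, and the log2 change to aN1aN2 was -3.24 (SE 0.24, adjusted p 1.9e-05). Canx (calnexin) ranged from 597 to 641 CPM in RW samples and from 301 to 370 CPM in aN1aN2 samples, a log2 change of -0.91 (SE 0.10, adjusted p 5.4e-07). The difference between the 2 genes' changes was not tested.

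All 10 disulfide isomerase family genes passed as lower, with log2 changes from -3.18 to -0.52. Pdia6 was at 1008, 1246 and 1245 CPM in RW and 148, 111 and 126 in aN1aN2 (log2 change -3.18, SE 0.18, adjusted p 1.7e-08). Pdia4 was at 464, 578 and 500 CPM in RW and 72.4, 58.2 and 59.2 in aN1aN2 (log2 change -3.0, SE 0.16, adjusted p 8.8e-11). Pdia3, the isomerase that works with the lectin chaperones, was at 1453, 1691 and 1619 CPM in RW and 316, 264 and 335 in aN1aN2 (log2 change -2.38, SE 0.19, adjusted p 2.5e-06). In these 3 genes the aN1aN2 samples were the lowest 3 of 9. Creld2, an ER protein with isomerase activity, was at 222, 371 and 464 CPM in RW and 64.2, 56.4 and 48.4 in aN1aN2 (log2 change -2.62, SE 0.37, adjusted p 0.0019). The remaining 6 changed less: Pdia5 by -1.11, Erp44 by -0.99, Txndc11 by -0.94, P4hb (protein disulfide isomerase itself) by -0.86, Txndc5 by -0.70 and Erp29 by -0.52.

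All 9 genes of ER-associated degradation passed as lower, 8 of them with log2 changes between -1.15 and -0.47. The largest change was that of Derl3, at 164, 252 and 202 CPM in RW, 123, 78.0 and 81.1 in aJ1aJ2 and 11.5, 4.85 and 16.9 in aN1aN2. Its 3 groups were separate, and the log2 change to aN1aN2 was -4.32 (SE 0.37, adjusted p 3.1e-05). In Th1 the other derlins, Derl2 and Derl1, changed by -0.87 and -0.49, and Syvn1 (the ubiquitin ligase HRD1) and its partner Sel1l by -1.15 and -0.84. Herpud1, a further subunit of that complex, changed by -0.78, Edem1 and Edem2, which trim sugar chains, by -0.75 and -0.47, and the lectin Os9 by -0.61. Edem2 was not called under 10 of the 21 alternative settings, with adjusted p-values up to 0.256, and Derl1 under 2.

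**Figure D2:**
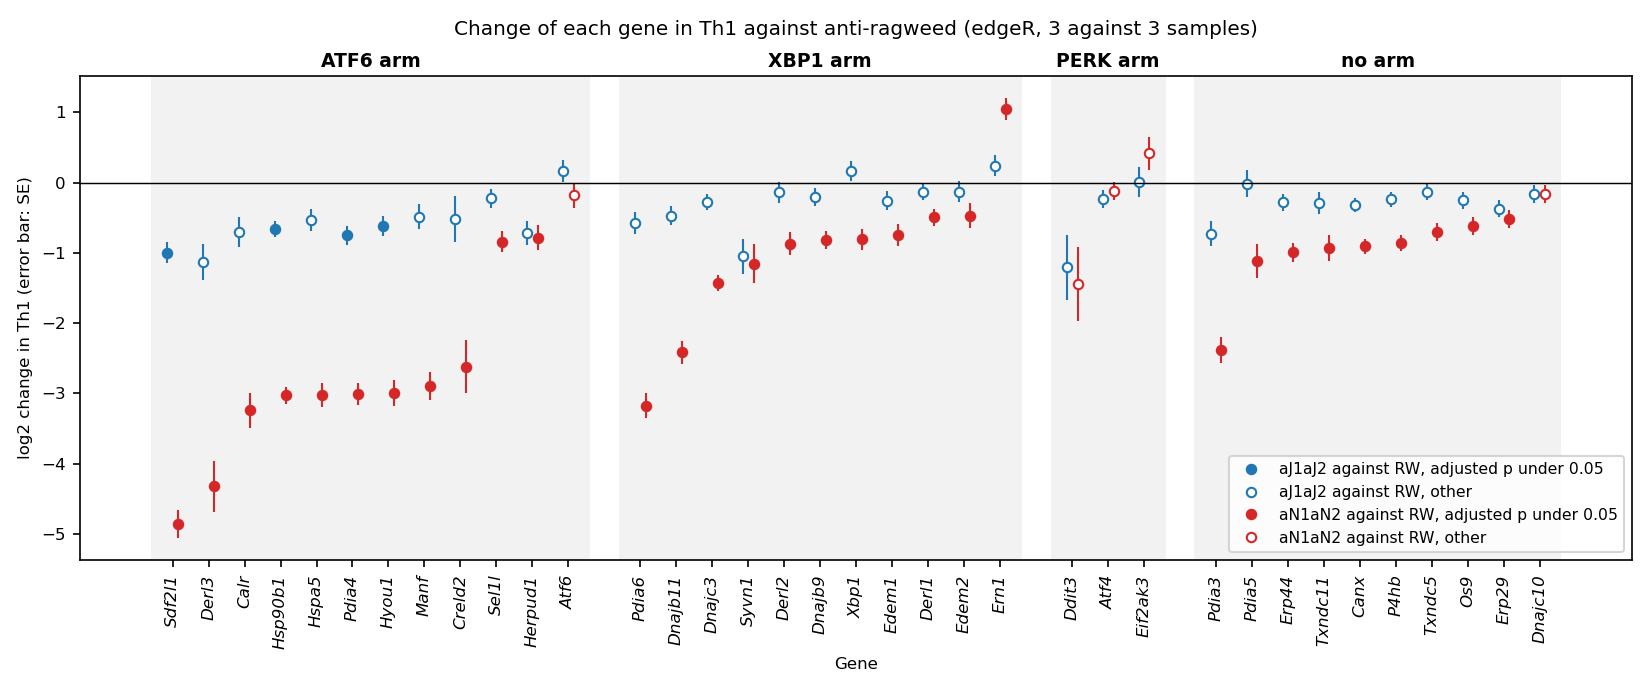
The log2 change with its SE (vertical) of each of the 36 genes (horizontal, by arm) in Th1, for aJ1aJ2 against RW and aN1aN2 against RW, with filled points for an adjusted p under 0.05. In aN1aN2, Sdf2l1 at -4.86 and Derl3 at -4.32 lie lowest and Ern1 at 1.05 highest.

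Among the sensors and transcription factors 1 rose, 1 fell and 4 did not pass. Ern1 (IRE1), the sensor of the XBP1 arm, was at 30.6, 28.3 and 23.8 CPM in RW, 28.5, 32.6 and 36.2 in aJ1aJ2 and 58.7, 60.0 and 48.4 in aN1aN2. All aN1aN2 samples were above all others, and Ern1 rose 2.06-fold against RW (log2 change 1.05, SE 0.16, adjusted p 1.7e-05). Xbp1 was at 219, 292 and 322 CPM in RW, 318, 309 and 299 in aJ1aJ2 and 187, 125 and 164 in aN1aN2. The aN1aN2 samples were the lowest 3 of 9, and the fall against RW was 1.75-fold (log2 change -0.81, SE 0.15, adjusted p 0.00048). Atf6 did not pass (30.6, 37.8 and 38.4 CPM in RW, 28.5, 38.2 and 24.2 in aN1aN2, adjusted p 0.45).

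None of the 3 PERK arm genes passed in any of the 3 comparisons by edgeR's quasi-likelihood test, and Ddit3 alone had an unadjusted p under 0.05, in both comparisons with RW. Eif2ak3 (PERK) was at 24.2, 20.9 and 15 CPM in RW and 31.3, 21.2 and 26.6 in aN1aN2 (log2 change 0.42, adjusted p 0.18). Atf4 was at 126, 118 and 105 CPM in RW and 122, 92.7 and 105 in aN1aN2 (log2 change -0.12, adjusted p 0.53). The ranges overlapped in both genes. Ddit3 (CHOP) was uneven within RW, at 79.4 and 68.8 CPM in RW 1 and RW 2 and 25.5 in RW 3, against 23.1, 25.1 and 24.5 in aJ1aJ2 and 26.3, 17.6 and 15.7 in aN1aN2. Its log2 change to aN1aN2 was -1.44 (SE 0.52, adjusted p 0.078), and DESeq2 called it with an adjusted p of 8.3e-05. Without RW 3 the change was -1.86 with an adjusted p of 2.9e-07, in a range from 2.9e-07 to 0.198 over all settings. For aJ1aJ2 the change of Ddit3 was -1.20, with an adjusted p of 0.36, of 0.014 by DESeq2 and of 1.1e-05 without RW 3.

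By arm, in aN1aN2 against RW, 11 of 12 ATF6 genes were lower with a median log2 change of -3.0. Of the 11 XBP1 genes 10 were lower and 1 higher, with a median of -0.82, and of the 10 genes of no arm 9 were lower, with a median of -0.88. The PERK arm had a median of -0.12 over its 3 genes. Within the ATF6 arm 9 genes changed by -2.62 or more strongly, while Sel1l, Herpud1 and Atf6 did not reach -1. The genes with an ERSE or ERSE-II had a median of -2.82 (n = 10) and the others with an entry -0.84 (n = 21). Sdf2l1, Pdia4 and Dnajb11 fell strongly without an exact ERSE in the window, and Syvn1, Canx and Herpud1 held an element and changed by -1.15, -0.91 and -0.78. No test was made on the arms or the elements.

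Ligand blockade gave a smaller shift in the same label. Against RW, 4 of the 36 genes passed in aJ1aJ2, all lower, where 0.903% of all genes were called, 0.395% lower and 0.508% higher. They were Sdf2l1 (log2 change -1.0, SE 0.15, adjusted p 0.0032), Hsp90b1 (-0.65, SE 0.11, adjusted p 0.0048), Pdia4 (-0.75, SE 0.13, adjusted p 0.0091) and Hyou1 (-0.62, SE 0.14, adjusted p 0.033). In these 4 genes every aJ1aJ2 sample lay below every RW sample. That order held for 16 of the 36 genes and for 7.6% of all genes. The median log2 change was -0.29 over the 36 genes and 0.01 over all genes. Larger changes that did not pass, beside that of Ddit3, were those of Derl3 (-1.13, adjusted p 0.11) and Syvn1 (-1.05, adjusted p 0.065).

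The aJ1aJ2 count rested on individual samples. In Th1 of aJ1aJ2 1 mitochondrial genes took 10.1% of UMIs, against 7.87% and 8.03% in the other aJ1aJ2 samples, and Tg was at 112469 CPM against 82847 and 84506. The part of this difference in the count was not tested. The count was 16 without aJ1aJ2 1, where 6.02% of all genes were called, 1 without aJ1aJ2 3 (0.148% of all genes) or aJ1aJ2 4 (0.282%), 2 without RW 2 (0.319%) and 6 without RW 3 (1.17%). RW and aJ1aJ2 share 2 series. In series B, with 2 samples of each group, the mean of aJ1aJ2 was below that of RW for 33 of the 36 genes (median log2 ratio -0.37), and in series A, with 1 of each, for 30 (median -0.26). The same counts were not made over all genes, so these 2 counts have no background beside them. Sdf2l1 had a log2 ratio of -1.15 in series B and -0.73 in series A, and Hsp90b1 of -0.76 and -0.48. Pdia4 stood at -0.92 and -0.44, and Hyou1 at -0.79 and -0.29. A fit with series as a term called 11 of the 36 genes and 2.55% of all genes. With a replicate block 0 of the 36 passed, as did 0.00941% of all genes. RW and aJ1aJ2 share no replicate number in the titles. That block sets them side by side only in a level of RW 3, aJ1aJ2 1 and aJ1aJ2 4, which is no true replicate.

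Receptor and ligand blockade were also compared with each other. In Th1, 27 of the 36 genes passed in aN1aN2 against aJ1aJ2, 26 lower and Ern1 higher (log2 change 0.80, SE 0.16, adjusted p 0.00067), where 22.8% of all genes were called, 11.7% lower and 11.1% higher. With a replicate block Ern1 was not called (adjusted p 0.103). Sdf2l1 was again the lowest (log2 change -3.86, SE 0.20), followed by Derl3 (-3.20), Pdia6 (-2.60) and Calr (-2.54). In Herpud1 and Syvn1 the difference between the blockades was smaller than its SE. Herpud1 was at 163, 196 and 132 CPM in aJ1aJ2 and 162, 137 and 179 in aN1aN2 (log2 change -0.06, SE 0.18). Syvn1 was at 19.4, 18.8 and 15.8 and at 19.8, 18.8 and 8.46 (-0.11, SE 0.31). For these, RW held 227 to 347 CPM of Herpud1 and 25.5 to 52.0 of Syvn1. Every aN1aN2 sample lay below every aJ1aJ2 sample in 26 of the 36 genes and in 18.5% of all genes. In 12 of the 36 genes the 3 groups were fully separate in the order aN1aN2 below aJ1aJ2 below RW, as in 3.04% of all genes.

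The change was also seen as a lower share of Th1 cells with a transcript. Every Th1 cell was thinned to 2000 UMIs, which left out 0 to 13 cells per sample. At this depth 94.0% to 100% of RW cells, 91.1% to 96.7% of aJ1aJ2 cells and 43.5% to 52.0% of aN1aN2 cells held a UMI of Hspa5. Without thinning the shares were 100% in every RW sample and 72.7% to 80.6% in aN1aN2. For Sdf2l1 the thinned shares were 57.2% to 71.2% in RW, 39.6% to 48.9% in aJ1aJ2 and 6.58% to 7.14% in aN1aN2, with no overlap between groups. Xbp1 overlapped, at 30.0% to 52.5% in RW and 20.9% to 39.3% in aN1aN2. Without thinning, 95.2% to 96.9% of RW cells and 20.9% to 27.4% of aN1aN2 cells held a UMI of Sdf2l1, and 92.2% to 96.4% of RW cells and 56.2% to 74.2% of aN1aN2 cells one of Xbp1. In the red cell label Eryth2, where the median cell held 5822 to 11432 UMIs, unthinned shares were at most 8.62% for Hspa5, 1.72% for Sdf2l1 and 1.82% for Xbp1.

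**Figure D3:**
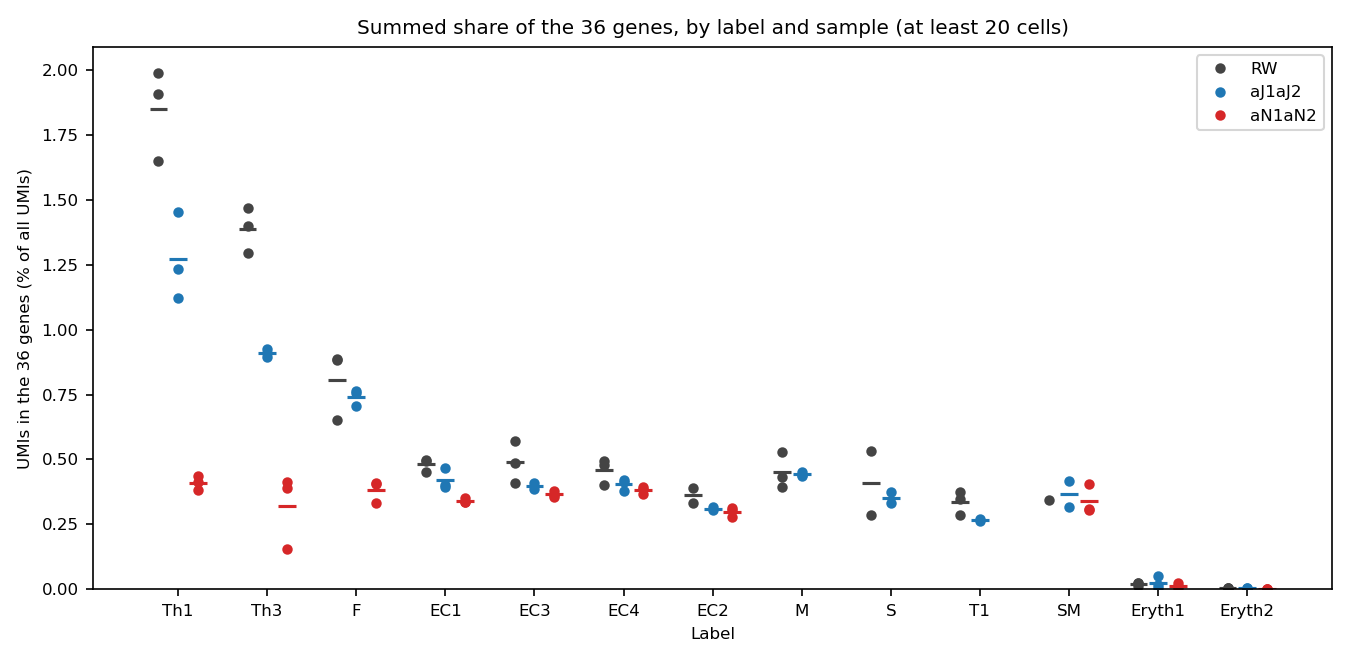
UMIs in the 36 genes as a percent of all UMIs (vertical) in each label (horizontal), with 1 point per sample that held at least 20 cells of the label and a bar at the group mean. Th1 shows 1.65% to 1.99% in RW, 1.12% to 1.46% in aJ1aJ2 and 0.382% to 0.437% in aN1aN2, and the endothelial labels lie below 0.6% in every group.

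Outside Th1 the response of these genes differed by gene. Over 8 other labels with enough cells, aN1aN2 against RW gave 53 calls among 156 tests of members that passed the filter on low counts, 45 lower and 8 higher. In F 13 of 30 tested members were called (19.7% of all genes), in EC1 11 of 35 (18.3%), in EC2 5 of 16 (16.2%), in EC3 5 of 31 (6.25%), in EC4 7 of 20 (21.2%) and in Th3 12 of 24 (5.8%). Single samples moved some of these counts. EC2 had 2 calls without RW 1, without RW 2 or without aN1aN2 1, and 3 without aN1aN2 2. Only RW 1 and RW 2 had enough cells in EC2, so leaving out either left 1 RW sample, assumed to vary like the other groups. EC3 had 2 without aN1aN2 1 and 3 without aN1aN2 2, and Th3 had 5 without RW 2 and 7 without aN1aN2 3. DESeq2 left 1 in EC2 and 3 in EC3. The Th3 calls were all lower, with Sdf2l1 at -4.24 and Derl3 at -4.34 on the log2 scale. Beside them, C cell markers in Th3 summed to between 36970 and 67891 CPM in RW and between 699.8 and 10485 in aN1aN2. Skeletal muscle markers spanned 117 to 620.3 CPM over RW samples and 44.1 to 94979 over aN1aN2 samples. Also apart between RW and aN1aN2 in Th3 were the Schwann sum (168 to 244 against 11.5 to 88.2 CPM, with Sox10 at 0) and the erythroid sum (285 to 1194 against 1290 to 1787). The macrophage sum (10.2 to 38.1 CPM in RW) and the lymphatic sum (5.87 to 27.5) were at 0.0 in aN1aN2. The part of all these markers in the Th3 calls was not tested. None of the 12 was left once thyrocyte carry-over was subtracted, since only 2 members could then be tested. The red cell labels tested no member.

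Hsp90b1 and Pdia6 were lower in F and in all 4 endothelial labels as well as in Th1. In EC1, Hsp90b1 was at 717, 822 and 716 CPM in RW and 295, 316 and 334 in aN1aN2 (log2 change -1.26, SE 0.12, adjusted p 7.0e-10). In F it was at 1181, 1762 and 1330 CPM in RW and 454, 325 and 304 in aN1aN2 (-1.97, SE 0.20, adjusted p 4.5e-08). The groups were separate in both labels. Pdia6 changed by -1.82 in F, -1.77 in EC1, -1.20 in EC2, -1.36 in EC3 and -1.25 in EC4. In EC2 the call of Hsp90b1 was lost without RW 2 and that of Pdia6 by DESeq2 and without RW 1, RW 2, aN1aN2 1 or aN1aN2 2. Pdia6 was also not called in EC3 without aN1aN2 1 or aN1aN2 3, and in EC4 without RW 3. Calr passed as lower in F (-1.92), EC1 (-1.45), EC2 (-1.05) and EC4 (-0.86), and Pdia3 in F (-1.75), EC1 (-0.95), EC3 (-0.83) and EC4 (-0.99). The calls of Calr in EC2 and Pdia3 in EC3 were each lost by DESeq2 and with 2 of the 9 samples left out in turn (RW 1 or aN1aN2 2 for Calr, aN1aN2 1 or aN1aN2 2 for Pdia3). Hspa5 passed in F (-1.28, SE 0.23) and EC1 (-0.75, SE 0.14) and had values of -0.05, -0.55 and -0.20 in EC2, EC3 and EC4. Of the members called lower, Pdia5 fell most in EC1 and Sdf2l1 most in F and EC3. The call of Pdia5 was kept under all 14 alternatives and that of Sdf2l1 in F under all 13. The call of Sdf2l1 in EC3 was lost under 8 of 13. In fibroblasts P4hb (-1.91) and Txndc5 (-1.53) were also lower. The erythroid sum in F ranged from 109 to 296 CPM over RW samples and from 851 to 43673 over aN1aN2 samples. The mural sum in F ranged from 139 to 285 CPM and from 103 to 113. Their part in the F calls was not tested.

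Xbp1 went the other way in endothelium. In EC1 it was at 140, 165 and 152 CPM in RW, 148, 132 and 104 in aJ1aJ2 and 217, 239 and 274 in aN1aN2. All aN1aN2 samples were above all others (log2 change against RW 0.67, SE 0.15, adjusted p 0.0011). In EC3 it was at 138, 123 and 152 CPM in RW and 533, 268 and 258 in aN1aN2 (1.34, SE 0.24, adjusted p 0.0013), and in EC4 at 194, 133 and 141 and at 234, 478 and 467 (1.25, SE 0.28, adjusted p 0.00092). These 3 calls were kept under every alternative run. In EC2, with 2 RW samples of enough cells, Xbp1 passed as higher (1.14, SE 0.36, adjusted p 0.030), but not by DESeq2, with no filter on low counts, or without RW 2, aN1aN2 1 or aN1aN2 3. Markers of other cells moved in the same labels. In EC3, mural markers summed to between 2668 and 4315 CPM in RW and between 753 and 958 in aN1aN2, and endothelial markers to 3385 to 4626 and 5101 to 6741. In EC1 and EC4 the endothelial sum was lower instead, at 14329 to 15921 against 10767 to 11298 and at 13828 to 14698 against 12310.0 to 12637. Erythroid markers were higher in EC3 (120 to 306 against 743 to 1130 CPM) and EC4 (218 to 1065 against 1667 to 2386), and thyrocyte markers in EC1 (716 to 990.3 against 1335 to 1958). Also apart between RW and aN1aN2 in EC1 were the macrophage sum (81.5 to 214 against 0.0 to 9.49 CPM), the parathyroid sum (47.1 to 92.3 against 228 to 334, with Gcm2 and Casr at 0), the C cell sum (47.5 to 71.8 against 171 to 222, with Calcb at 0) and the skeletal muscle sum (8.97 to 31.2 against 32.0 to 85.4). In EC4 they were the C cell sum (99.1 to 156 against 303 to 530.2 CPM, with Calcb at 0), the Schwann sum (35.9 to 125 against 4.96 to 8.28, with Sox10 and Cdh19 at 0), the macrophage sum (7.80 to 93.3 against 0.0 to 4.96, with Adgre1 at 0) and the mural sum (46.8 to 61.9 against 64.5 to 199). In EC3 they were the fibroblast sum (53.5 to 770.1 against 24.2 to 38.7 CPM) and the parathyroid sum (20.9 to 56.1 against 79.3 to 327, with Casr at 0), beside 5 lists of immune and Schwann cells that summed to between 1.90 and 41.8 CPM over RW samples and were at 0 in aN1aN2. In EC2, with RW 3 and its few cells included, the endothelial sum was apart (5353 to 6426 against 4400 to 4893 CPM). So were the thyrocyte sum (645 to 800 against 859 to 1596, with Tshr at 0) and the parathyroid sum (42.8 to 164 against 195 to 437, with Gcm2 and Casr at 0). The skeletal muscle sum was apart as well (98.7 to 622 against 655 to 1012). The part of all these markers in the changes of Xbp1 was not tested. Carry-over made up at most 4.96% of the RW level of Xbp1 in these labels.

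Herpud1 rose with it in EC1 and EC4. In EC1 it was at 122, 119 and 116 CPM in RW, 187, 160 and 162 in aJ1aJ2 and 220, 177 and 181 in aN1aN2. Both blockades were above RW in every sample (log2 change 0.50, SE 0.13, adjusted p 0.043 for aJ1aJ2 and 0.70, SE 0.15, adjusted p 0.00052 for aN1aN2). The aJ1aJ2 call in EC1 was lost by DESeq2 and with each of the 9 samples left out in turn, and the aN1aN2 call under no alternative. In EC4 the log2 change to aN1aN2 was 1.36 (SE 0.29, adjusted p 0.00046). Dnajb9 rose in EC2 (1.97, SE 0.56, adjusted p 0.018), where RW had 35.5 and 31.1 CPM in its 2 usable samples and 164 in the sample left out for its few cells. That call was lost by DESeq2 and without RW 1 or aN1aN2 1. In F, Atf4 rose from 112, 138 and 138 CPM to 252, 265 and 220 (0.94, SE 0.22, adjusted p 0.0033).

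Whether a change in Th1 differed from that in another label was tested on the within-sample difference of log2 CPM (limma, adjusted over all genes tested in both labels). For aN1aN2, 74 of 156 such tests passed, 73 of them with the lower change in Th1. They were 21 of 35 members against EC1 (13.3% of all genes), 10 of 16 against EC2 (11.4%), 16 of 31 against EC3 (6.98%), 11 of 20 against EC4 (12.2%) and 16 of 30 against F (17.2%). Xbp1 differed from each endothelial label, by -1.47 (SE 0.18, adjusted p 6.1e-05) for EC1 up to -2.05 (SE 0.24, adjusted p 0.00013) for EC3, and by -0.97 for F. Hspa5 differed by -2.28 for EC1, -2.90 for EC2, -2.58 for EC3, -2.76 for EC4 and -1.78 for F. P4hb was the exception, with a change in Th1 that was 1.03 higher (SE 0.31, adjusted p 0.034) than in F. Against Th3 0 of 24 members passed, as did 0.0% of all genes, and 2 had an unadjusted p under 0.05.

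**Figure D4:**
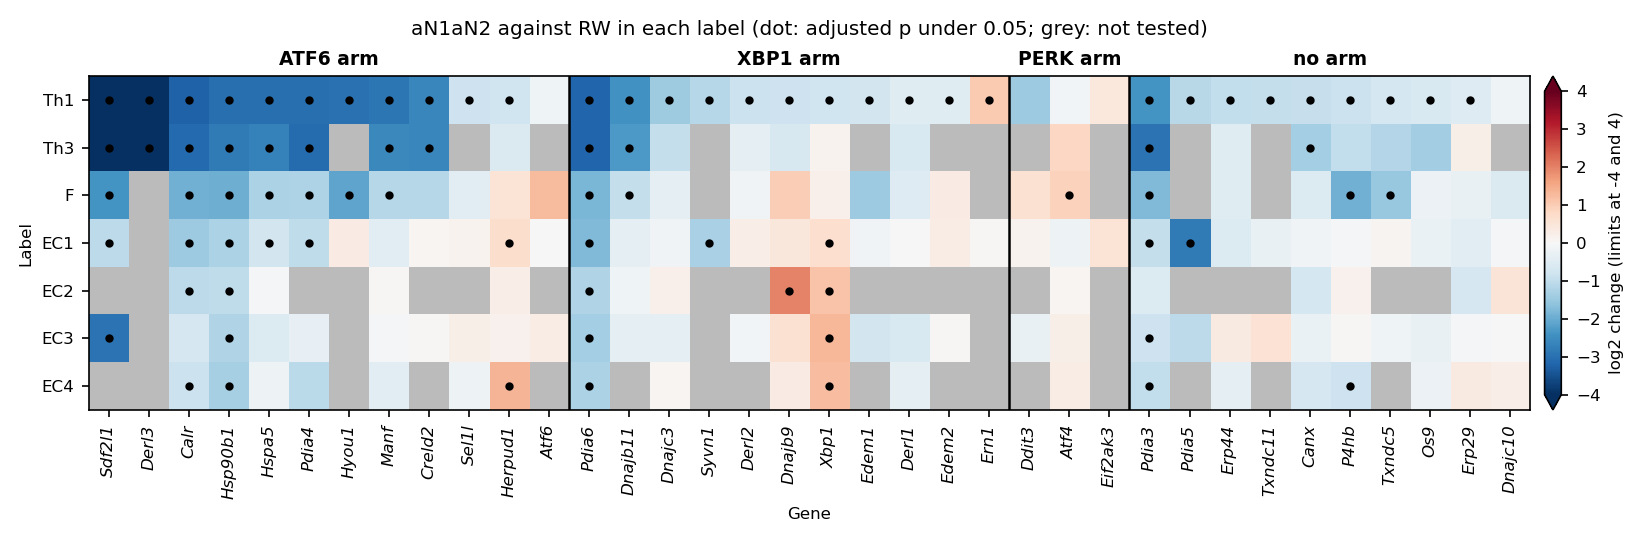
Log2 change of each gene (horizontal, by arm) for aN1aN2 against RW in 7 labels (vertical), with colour limits at -4 and 4, a dot for an adjusted p under 0.05 and grey where a gene was not tested. Hsp90b1 and Pdia6 are blue in every label, while Xbp1 is blue in Th1 at -0.81 and red in EC1 to EC4 at 0.67 to 1.34.

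**Figure D5:**
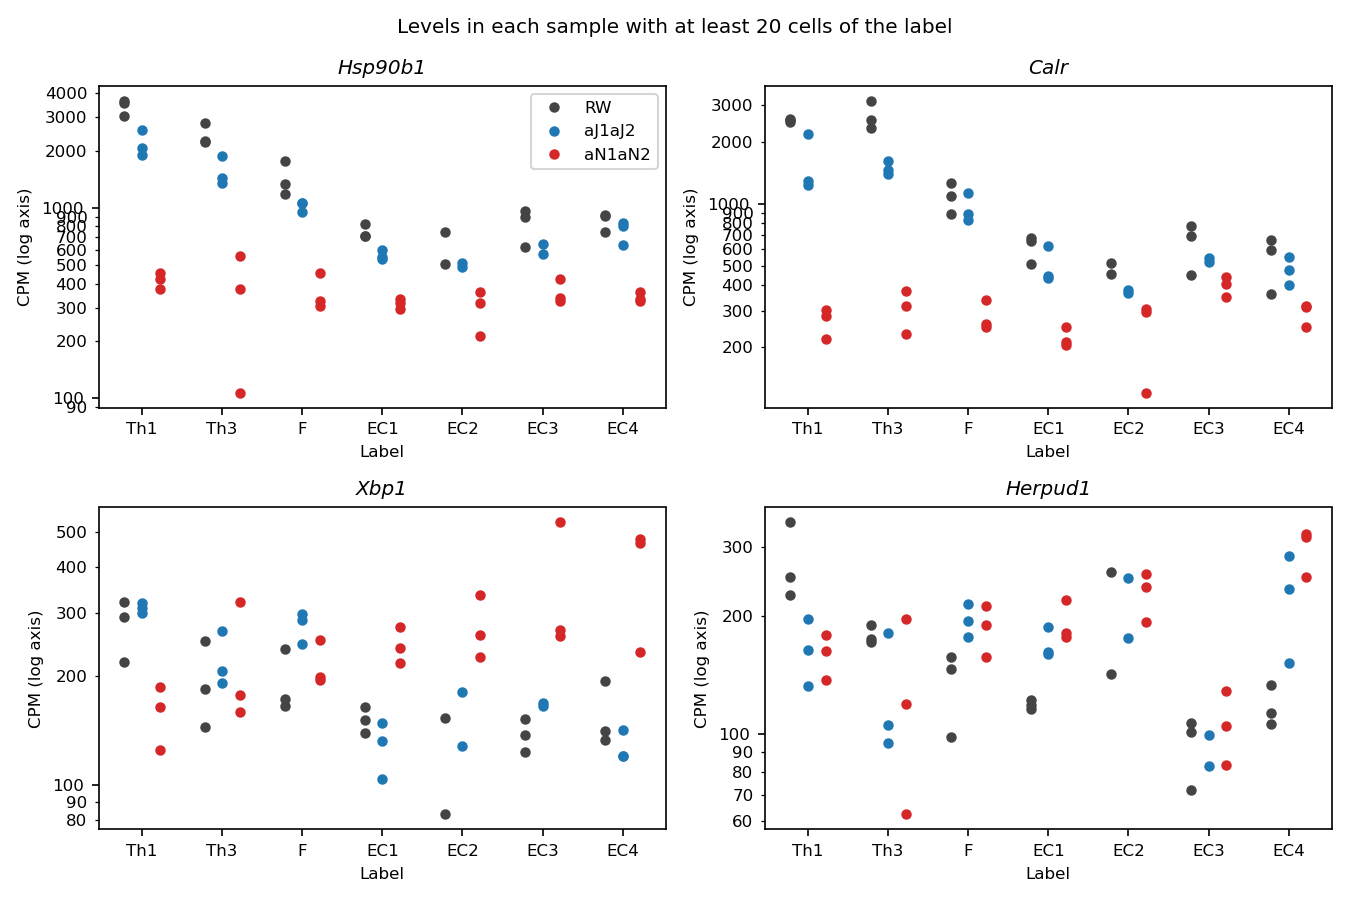
CPM on a log axis (vertical) of Hsp90b1, Calr, Xbp1 and Herpud1 in 7 labels (horizontal), with 1 point per sample of at least 20 cells. In Th1 the aN1aN2 points of Hsp90b1 lie at 377 to 458 CPM, and in EC1 at 295 to 334, while Xbp1 is at 125 to 187 CPM in Th1 of aN1aN2 and 217 to 274 in EC1.

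In the other labels ligand blockade gave 2 member calls among 207 tests over 11 labels, both in EC1 (2 of 35, where 1.5% of all genes were called). In the other labels that tested members the count was 0, beside 3.03% of all genes in EC2, 0.139% in EC3, 1.32% in EC4, 0.475% in F and 0.0% in M, S, T1 and Th3. At an unadjusted p under 0.05 there were 11 members in EC1, 7 in F, 5 in Th3 and at most 1 in each of the rest. DESeq2 made 1 call in all. They were Herpud1 and Hsp90b1 (log2 change -0.42, SE 0.11, adjusted p 0.041), at 600, 554 and 537 CPM against 717, 822 and 716 in RW. The difference from Th1 passed only for Herpud1, by -1.24 (SE 0.19, adjusted p 0.012) for EC1 and -1.54 (SE 0.25, adjusted p 0.025) for EC4, where 0.151% and 0.0336% of all genes passed. Against the other labels 0 members passed, with 0.126% of all genes in EC2, 0.0452% in F and 0.0751% in T1. Neither EC1 call was kept without RW 1, RW 2, aJ1aJ2 3, aJ1aJ2 4 or any aN1aN2 sample. Without RW 3, Hsp90b1 was kept and Herpud1 lost. Without aJ1aJ2 1 there were 5 calls in EC1, namely Hsp90b1, Pdia3, Pdia6, Calr and Atf4, while the calls over all genes went from 141 to 427. The 2 label differences became 0 without RW 1, RW 2 or aJ1aJ2 4, 1 without aJ1aJ2 3 or any aN1aN2 sample and 7 without RW 3.

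Genes of the same pathway that are not on the list were read from the same Th1 fit, where 17.3% of all genes were lower and 17.3% higher in aN1aN2 against RW. Of 11 tested XBP1 targets 9 were lower and 0 higher in aN1aN2 against RW, led by Spcs3 (-1.18), Fkbp14 (-1.18), Hspa13 (-1.12) and Serp1 (-1.07). These serve signal peptide cleavage, folding and translocation into the ER. Of 28 other ER folding and quality control genes 19 were lower and 1, Sdf2, was higher. The prolyl isomerases Fkbp11 (-3.0), Fkbp2 (-2.07) and Ppib (-1.59) and the lectin Mlec (-1.20) changed most. Fkbp2 and Ppib were also the 2 of these 28 that passed in aJ1aJ2 against RW, at -0.49 and -0.47, where 0.903% of all genes were called and 0.395% were lower. By the same edgeR test 12 of the 28 had an unadjusted p under 0.05 there.

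The targets of ATF4 and the integrated stress response did not move as a block. Of 19 tested, 5 were lower and 5 higher in aN1aN2 against RW, where 34.6% of all genes were called. Phgdh, of serine synthesis, changed by -2.76 and Aars, a tRNA synthetase, by -1.46, while Sesn2 rose by 2.04 and Ddit4 by 1.47, both restraints on mTORC1. Of 10 other regulators of the response 3 were lower and 1 higher, a share near that of all genes, among them Atf6b (-1.10), Eif2s1 (-1.03) and Creb3l2 (1.04). Of 24 cytosolic and mitochondrial chaperones 11 were lower and 4 higher, with values from -0.89 to 1.18. Of 10 immediate early genes, which rise during tissue digestion, 0 were lower and 2 higher. In aJ1aJ2 none of the ATF4, other regulator, cytosolic chaperone and immediate early genes passed by edgeR's test, with 4, 1, 4 and 1 of them at an unadjusted p under 0.05.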

How the data were processed

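Single cells of 9 pooled thyroid samples were sequenced with 10x 3′ chemistry. The authors deposited raw UMI counts per gene and cell, and an annotation with the sample and label of each cell. Per the submitters' processing notes, Cell Ranger and GRCm38 were used; versions and the making of the labels are not given in the sources used here. No doublet caller was run. Gene IDs were paired with symbols through GENCODE, which named 52403 IDs and left 233 unnamed. In 2619 annotation lines the fields were shifted and were realigned.

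Counts were summed per sample and label. Th1 was fitted over all 9 samples with edgeR 4.0.16 (filterByExpr, TMM, robust quasi-likelihood, 3 group means) in R 4.3.3, with Benjamini-Hochberg adjustment over all genes tested. Other labels used samples of at least 20 cells and contrasts with 2 such samples per group, of which a left-out sample could leave 1. Adjusted p-values between labels came from limma 3.58.1 (trend, robust), fitted to within-sample differences of log2 CPM (prior count 2). CPM of the 36 genes are per 1000000 of the TMM-scaled total, or of the raw total where a sample was not fitted. Marker sums and Tg levels are per 1000000 of the raw UMI total. Fits were tested on simulated data. The 36 genes, the arms and the pathway lists were chosen with earlier results of these data known. CPM of each RW and aN1aN2 sample are given for the 12 members with the largest change in Th1 among those called. They are also given for all sensors and transcription factors. CPM of aJ1aJ2 samples are given for only some of these genes. Up to 4 called genes of each other list are named. Replicates are separate pools of mice, and depth limits the precision of members under about 50 CPM. Replicate numbers come from the titles, except for RW 3 and aJ1aJ2 1, whose titles give none and whose numbers are only names. Every title also carries an internal sample number, and these fall in 3 ranges. RW 3 and aJ1aJ2 1 form series A. The remaining RW and aJ1aJ2 samples form series B. All aN1aN2 samples, and no others, form series C. Alternatives covered DESeq2 1.42.0, other scaling and filters, depth, series, replicate block and left-out samples; the fit without robust estimation was chosen after seeing the data. Titles give the same number to 3 pairs of samples, and their deviations from group means correlated at 0.024 (RW 1 and aN1aN2 1), -0.013 (RW 2 and aN1aN2 2) and -0.047 (aJ1aJ2 3 and aN1aN2 3). RW and aJ1aJ2 share no number in the titles.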

Additional observations from a re-analysis of the deposited data

Results flagged for a closer look

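The groups held 3 samples each, so no single sample was tested as standing apart. Effects of the same blockade that differed between labels, by the limma test of the difference, were as follows. For aN1aN2 against RW the change in Th1 differed from that in EC1 for 21 of 35 members tested (13.3% of all genes), in EC2 for 10 of 16 (11.4%), in EC3 for 16 of 31 (6.98%), in EC4 for 11 of 20 (12.2%) and in F for 16 of 30 (17.2%).

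Members that rose in another label while their change in Th1 was lower stood out. For Xbp1 the change in Th1 minus that in the other label (log2) was -1.47 for EC1, -1.85 for EC2, -2.05 for EC3 and -2.0 for EC4. For Herpud1 it was -1.45 for EC1 and -1.99 for EC4, for Dnajb9 -2.63 for EC2 and for Atf4 -1.03 for F, where Atf4 in Th1 had not passed. For aJ1aJ2 against RW 1 of 35 members differed between Th1 and EC1 (0.151% of all genes) and 1 of 20 between Th1 and EC4 (0.0336%), Herpud1 in both, at -1.24 for EC1. The rises of Xbp1 and Dnajb9 in EC2 were not called by DESeq2 or with some of the samples left out. For aJ1aJ2, the rise of Herpud1 in EC1 was not called by DESeq2 or with any of the 9 samples left out. All values of aN1aN2 come from series C alone.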

How the results depend on the processing

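In Th1, the count of 31 members called in aN1aN2 against RW was 30 or 31 under 21 alternatives, and 29 members were called under every one. Derl1 and Edem2 were lost under some of them and Ddit3 was gained under some. For aN1aN2 against aJ1aJ2 the count of 27 went to 20 with a replicate block and to 23 with DESeq2. Leaving out single samples gave 23 to 27. For aJ1aJ2 against RW, 4 members (0.903% of all genes) became 10 by DESeq2 (0.979%) and 13 if low counts were not filtered (1.59%). They became 11 with a series term (2.55%) and 0 with the replicate block (0.00941%). Leaving out single samples gave 1 to 16, beside 0.148% to 6.02% of all genes. None of the 4 was called under all 22 alternatives. No called change reversed. The 3 pairs of samples that share a number in the titles did not deviate together, and RW and aJ1aJ2 share none, so the replicate block sets them side by side only in the level that holds RW 3, aJ1aJ2 1 and aJ1aJ2 4. The cause of these shifts was not tested. For the other comparisons the shares of all genes under each alternative are not given here. Outside Th1, the 2 calls for aJ1aJ2 became 1 with DESeq2 and 0 to 5 with a sample left out. The 53 calls for aN1aN2 became 26 where samples needed 50 cells (11 in EC1, 8 in EC4 and 7 in Th3, with EC2, EC3 and F not tested), 44 with DESeq2, 40 with thyrocyte carry-over subtracted, and 40 to 56 with a sample left out. Tests of label differences gave 0 to 7 for aJ1aJ2 and 63 to 76 for aN1aN2 with a sample left out. Limits are the low counts of Eif2ak3, Ern1, Syvn1 and Pdia5 (494, 803, 610 and 621 UMIs in all Th1 cells) and of every member in labels with few cells.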
